A study of Drosophila melanogaster with 12 samples.

Results

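Oxidative phosphorylation was followed in wing imaginal discs of Drosophila larvae through 82 genes, 69 in the nucleus and 13 in the mitochondrial genome, among 10179 genes that could be tested. A gene was a member if its FlyBase symbol began with ND-, Sdh, UQCR-, COX or ATPsyn, if it was Cyt-c1, or if it was a protein gene of the mitochondrial genome, and if its mean over the 12 libraries was at least 10 normalized counts. In all, 102 symbols matched and 20 lay under that mean, 4 of them at 0 in every library. The rule used names and abundance only, but it was set with earlier results of these data known. By role the members were 77 subunits (64 nuclear and 13 mitochondrial), 4 nuclear paralogs whose symbol is that of another gene followed by L, and the assembly factor Sdhaf3. The members closest to the limit were ATPsynbetaL and mt:ATPase8, with means of 10.9 and 11.5, and the closest gene outside it was COX4L, with a mean of 9.71.

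RNA was sequenced from wing discs of third-instar larvae kept at 25 °C and collected 7 days after egg laying, with 150 discs in each of 12 samples. All larvae carried nub-Gal4 and UAS-mRFP, and Gal4 under nub control acts in the wing pouch, so each whole disc also held tissue in which no RNAi was driven. The 3 groups of 4 libraries were nub>mRFP (control), nub>mRFP; ecd-RNAi (ecd RNAi) and nub>mRFP; ecd-RNAi, Xrp1-RNAi (ecd plus Xrp1 RNAi). A group with Xrp1 RNAi alone was not analysed here, so that the effect of adding Xrp1 RNAi could be read only on top of ecd RNAi.

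The mitochondrial inner membrane carries the electron transport chain. Complex I takes electrons from NADH and complex II from succinate, complex III passes them to cytochrome c and complex IV to oxygen, and complex V (ATP synthase) uses the proton gradient that results to make ATP. Complex II is built from nuclear genes alone, whereas the other complexes join nuclear subunits, imported as proteins, with a few that are encoded in the mitochondrial genome. The nuclear gene ecd codes for a protein needed for splicing and for ecdysone synthesis, and Xrp1 codes for a stress-responsive bZIP transcription factor.

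Groups are called by their labels throughout, because the level of ecd RNA did not check them. ecd averaged 1498 normalized counts in the libraries labelled control, 1653 in those labelled ecd RNAi and 1746 in those labelled ecd plus Xrp1 RNAi, and the first difference did not pass the test (adjusted p = 0.251). Xrp1 averaged 4812, 20882 and 5084 in the same order. The deposited values summed to between 26365262 and 32779354 per library over gene rows. Ribosomal RNA took 15.6 to 19.0% of that sum in control, 20.9 to 30.2% in ecd RNAi and 19.4 to 28.2% in ecd plus Xrp1 RNAi. Replicates 3 and 4 of control and of ecd RNAi were rich in fat body transcripts. The 13 fat body markers summed to 7443 to 82449 in control, 5546 to 32642 in ecd RNAi and 7428 to 9002 in ecd plus Xrp1 RNAi. The lowest sums were mostly LpR2, with 6104 of the 7443 in control replicate 1. LpR2 did not follow the fat-body-rich split, at 5810 to 6286 in control, 3535 to 4398 in ecd RNAi and 5435 to 6649 in ecd plus Xrp1 RNAi.

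Transcripts of the respiratory chain were lower after ecd RNAi. With Xrp1 RNAi added they were close to control, most of them slightly below it. Of the 82 members, 63 fell in ecd RNAi against control, where 25.4% of all genes tested were lower, and 1 rose, where 22.4% were higher. The median change of the members was -0.57, beside -0.04 over all genes tested. Changes are differences of log2(normalized count + 1), and a gene was said to rise or fall when the two-sided limma test gave a p-value, adjusted over all 10179 genes by the Benjamini-Hochberg method, under 0.05. In 60 members every ecd RNAi library lay below every control library, as it did in 23.3% of all genes. In bulk discs, fewer cells of a type and less RNA per cell cannot be told apart.

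With Xrp1 RNAi added, 59 members rose against ecd RNAi, where 26.7% of all genes were higher, and 1 fell, where 20.6% were lower. The median change was 0.44, beside -0.01 over all genes tested. In 50 members the groups did not overlap and ecd plus Xrp1 RNAi was the higher, beside 24.4% of all genes. Against control, ecd plus Xrp1 RNAi had 1 member lower, beside 2.10% of all genes, and 0 higher, beside 2.29%, with a median of -0.09. In that comparison 4 members were lower without overlap, beside 7.93% of all genes, and 0 were higher without overlap, beside 8.95%. The change there was below 0 in 69 members and above 0 in 13, beside 5014 and 5158 of all genes tested. In the authors' deposited table, 62 members were lower in ecd RNAi than in control at an adjusted p under 0.05, beside 20.4% of all genes, and 1 was higher, beside 19.1%. Between ecd plus Xrp1 RNAi and ecd RNAi, 59 were higher in the authors' deposited table, beside 22.2%. Against control, 2 were lower in ecd plus Xrp1 RNAi in the authors' deposited table, beside 5.20%, and 0 higher, beside 4.32%. Each pair of these comparisons shares a group of libraries, so they are given side by side.

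**Figure D1:**
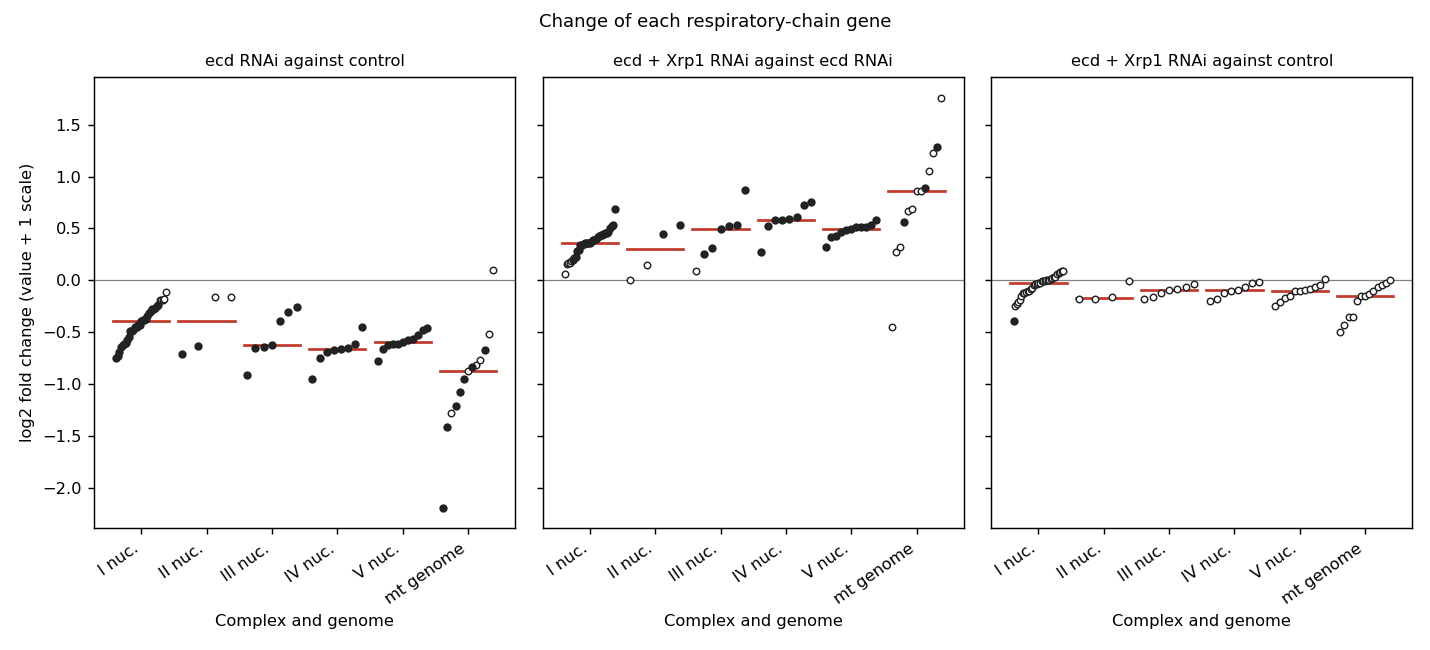
Change of each subunit gene as log2 fold change on the value + 1 scale, for the 3 comparisons, by complex (nuclear subunits) and for the 13 genes of the mitochondrial genome. Each point is a gene, filled where the limma adjusted p was under 0.05, and the red line is the median; ND-B8, the 4 paralogs and Sdhaf3 are not drawn. Points lie below 0 in ecd RNAi against control except mt:ATPase8, whose mean was only 11.5 normalized counts. In ecd plus Xrp1 RNAi against control they lie close to 0, most of them below it.

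Most of the 64 nuclear subunits moved in 1 direction. In ecd RNAi 55 of them fell, beside 25.4% of all genes, and 0 rose, beside 22.4%. In ecd plus Xrp1 RNAi against ecd RNAi 55 rose, beside 26.7%, and 0 fell, beside 20.6%. Leaving aside ND-B8, whose level is described below, the mean of a subunit in ecd RNAi was between 51.7 and 92.8% of its control mean, with a median of 71.1% over 63 genes. In ecd plus Xrp1 RNAi the same genes lay between 76.1 and 107% of control, with a median of 94.5%. Summed over the 64 genes, nuclear transcripts stood at 100% ± 7.83 (SD, n = 4) of the control mean in control, 70.3% ± 6.68 in ecd RNAi and 93.7% ± 5.01 in ecd plus Xrp1 RNAi. The 4 ecd RNAi libraries stood at 75.1, 76.9, 64.5 and 64.5%, all below the lowest control library at 90.7%.

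**Figure D2:**
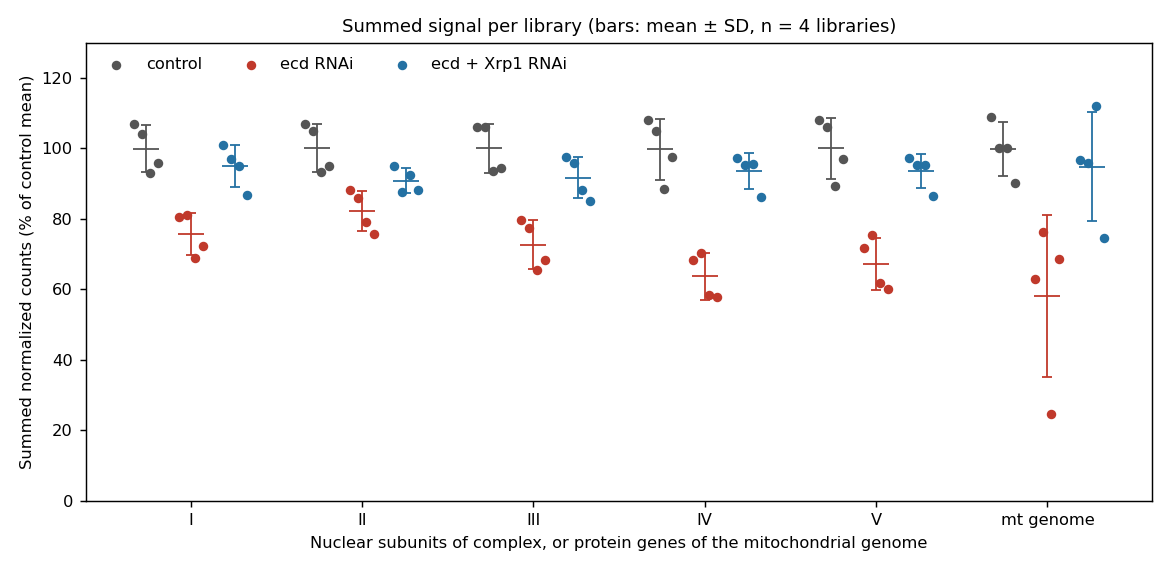
Summed normalized counts of the nuclear subunits of each complex and of the protein genes of the mitochondrial genome, as percent of the control mean. Each point is a library, and bars give the mean ± SD over 4 libraries. Complex IV had the lowest nuclear mean in ecd RNAi, 63.7%, and complex II the highest, 82.2%; the mitochondrial sum of ecd RNAi replicate 3 stood at 24.5%.

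Complex I, the NADH dehydrogenase, supplied 34 nuclear subunits. Of these, 27 fell in ecd RNAi, beside 25.4% of all genes, with a median of -0.41. In ecd plus Xrp1 RNAi against ecd RNAi 28 rose, beside 26.7%, with a median of 0.36. The largest fall was that of ND-30, a core subunit of the module that hands electrons to ubiquinone, on chromosome 3L from 3158485 to 3159578. ND-30 was at 1573, 1561, 1267 and 1414 normalized counts in control, at 888, 888, 821 and 844 in ecd RNAi, and at 1190, 1089, 1132 and 1015 in ecd plus Xrp1 RNAi. The 3 groups did not overlap, and the ecd plus Xrp1 RNAi libraries lay between the others. ND-30 fell by 0.75 in ecd RNAi (SE 0.08, adjusted p = 4.1e-06) and rose by 0.36 when Xrp1 RNAi was added (adjusted p = 0.0016). It was also the 1 member called lower in ecd plus Xrp1 RNAi than in control, by -0.39 (95% interval -0.55 to -0.23, adjusted p = 0.0108).

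Another pattern was shown by ND-B12, an accessory subunit. Its libraries were at 897, 882, 791 and 864 in control, at 554, 576, 502 and 503 in ecd RNAi and at 882, 828, 974 and 760 in ecd plus Xrp1 RNAi. The ecd RNAi libraries lay below all others, and the other 2 groups overlapped. ND-B12 fell by 0.69 (adjusted p = 1.9e-05), rose by 0.69 with Xrp1 RNAi (adjusted p = 2.3e-05), and had a difference from control of -0.00 with a 95% interval of -0.18 to 0.18. ND-MLRQ, the most abundant nuclear gene of complex I per kilobase of exon, ranged from 2251 to 2936 in control, from 1379 to 1986 in ecd RNAi and from 1966 to 2523 in ecd plus Xrp1 RNAi, and fell by 0.62 (adjusted p = 8.0e-04). Its human counterpart is now placed in cytochrome c oxidase, whereas it is counted here with complex I by its symbol.

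The core subunits of complex I did not all move by the same amount. The 3 nuclear core subunits of the NADH-oxidising module had a median of -0.30, and ND-51, which binds NADH and the flavin, was at -0.19 (adjusted p = 0.0504). The 4 nuclear core subunits of the ubiquinone module had a median of -0.62, with ND-30, ND-49 (-0.64) and ND-23 (-0.60) called and ND-20 at -0.11 (adjusted p = 0.263). The 27 accessory subunits had a median of -0.43, and 22 of them fell, beside 25.4% of all genes. Differences between modules were not tested. Besides ND-51 and ND-20, ND-B14.5B (-0.28), ND-B14.7 (-0.19), ND-SGDH (-0.19), ND-MNLL (-0.18) and ND-B8 did not pass the test. These core subunits and uncalled genes, other than ND-30 and ND-B8, were singled out after their values were seen. With the replicate number as a block over control and ecd RNAi, ND-51 (adjusted p = 0.00917), ND-B14.7 (adjusted p = 0.0182), ND-SGDH (adjusted p = 0.0284) and ND-B14.5B (adjusted p = 0.0385) were called lower. That block cannot be told apart from the split between fat-body-rich and other libraries.

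Complex II, succinate dehydrogenase, had subunits that differed among themselves. SdhA, the flavoprotein that oxidises succinate, was at 4937, 4728, 4337 and 4306 in control, at 4426, 4276, 4039 and 3688 in ecd RNAi and at 4207, 4032, 4097 and 4056 in ecd plus Xrp1 RNAi. The control and ecd RNAi libraries overlapped, and the ecd plus Xrp1 RNAi libraries lay within the range of ecd RNAi. The change of SdhA in ecd RNAi was -0.16 (95% interval -0.30 to -0.02, adjusted p = 0.0586). It passed the test with the replicate block over control and ecd RNAi (adjusted p = 0.0164) and over 3 groups (adjusted p = 0.0233). Between ecd plus Xrp1 RNAi and ecd RNAi it was -0.00 (adjusted p = 1.0). With the 4 fat-body-rich libraries left out, SdhA was called lower than control in ecd RNAi (-0.15, adjusted p = 0.0472) and in ecd plus Xrp1 RNAi (-0.24, adjusted p = 0.0266). SdhB, the iron-sulfur subunit, was at -0.16 in ecd RNAi (adjusted p = 0.0942).

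The membrane anchors of complex II fell more. SdhC was at 1445, 1495, 1214 and 1287 in control, at 918, 890, 834 and 854 in ecd RNAi and at 1231, 1166, 1295 and 1103 in ecd plus Xrp1 RNAi. SdhD was at 1069, 992, 858 and 904 in control, at 575, 615, 536 and 612 in ecd RNAi and at 926, 767, 892 and 792 in ecd plus Xrp1 RNAi. In both genes every ecd RNAi library lay below every other library, and the other 2 groups overlapped. SdhC fell by 0.63 (adjusted p = 1.7e-05) and SdhD by 0.71 (adjusted p = 2.2e-05). The 95% interval of SdhC, -0.80 to -0.47, and that of SdhD, -0.89 to -0.52, did not reach that of SdhA. The assembly factor Sdhaf3, whose product matures the iron-sulfur subunit in yeast, was at 152 to 175 in control, 81.0 to 123 in ecd RNAi and 145 to 180 in ecd plus Xrp1 RNAi. Sdhaf3 fell by 0.66 (adjusted p = 0.00251) and rose by 0.69 (adjusted p = 0.00198), but with the 4 fat-body-rich libraries left out its fall was 0.33 and not called (-0.33, adjusted p = 0.112).

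All 7 nuclear subunits of complex III, the cytochrome bc1 complex, fell in ecd RNAi (median -0.62), beside 25.4% of all genes. With Xrp1 RNAi 6 of them rose (median 0.49), beside 26.7%. UQCR-6.4, a small subunit on chromosome 2R from 17572096 to 17572784, was at 776, 821, 760 and 684 in control, at 411, 444, 374 and 387 in ecd RNAi and at 773, 854, 738 and 608 in ecd plus Xrp1 RNAi. It fell by 0.91 (adjusted p = 9.8e-06) and rose by 0.87 (adjusted p = 1.7e-05), with no overlap between ecd RNAi and either other group. The core protein UQCR-C2 fell by 0.65 (adjusted p = 6.3e-06) and rose by 0.53 (adjusted p = 4.4e-05).

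The other core protein, UQCR-C1, behaved differently in level. It was at 5096, 4977, 4053 and 4351 in control, at 4326, 3964, 3578 and 3502 in ecd RNAi and at 4170, 4021, 4012 and 4059 in ecd plus Xrp1 RNAi. Control and ecd RNAi overlapped, and so did the 2 RNAi groups. UQCR-C1 fell by 0.26 (adjusted p = 0.0169), and its difference between the RNAi groups was 0.09 (95% interval -0.09 to 0.26, adjusted p = 0.408). The fall was not called without control replicate 1 (-0.22, adjusted p = 0.0575), control replicate 2 (-0.23, adjusted p = 0.0563) or ecd RNAi replicate 4 (-0.22, adjusted p = 0.0536). In ecd plus Xrp1 RNAi against control UQCR-C1 was not called (adjusted p = 0.231). It was called lower there with quantile normalization (-0.21, adjusted p = 0.0413) and array weights (-0.23, adjusted p = 0.0263). The same held without the 4 fat-body-rich libraries (-0.31, adjusted p = 0.0149). Cyt-c1, the cytochrome of the complex, was at -0.31 (adjusted p = 0.00231), and UQCR-Q at -0.39 (adjusted p = 0.00812).

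Complex IV, cytochrome c oxidase, had the lowest summed level of the 5 complexes after ecd RNAi, at 63.7% ± 6.62 of control (68.4, 70.3, 58.3 and 57.7%). All 8 of its nuclear subunits fell (median -0.67), beside 25.4% of all genes, and without overlap, beside 23.3%. All 8 rose with Xrp1 RNAi (median 0.58), beside 26.7%. COX8, a short membrane subunit on chromosome 3L from 21538859 to 21539447, showed the largest fall of any called nuclear member. It was at 1952, 1893, 1410 and 1769 in control, at 954, 1041, 849 and 788 in ecd RNAi and at 1507, 1471, 1687 and 1428 in ecd plus Xrp1 RNAi. COX8 fell by 0.95 (SE 0.11, adjusted p = 1.4e-05), which placed its mean at 51.7% of control, and rose by 0.75 (adjusted p = 1.1e-04). In ecd plus Xrp1 RNAi against control it was at -0.20 (adjusted p = 0.31), and it was called lower there with array weights (-0.26, adjusted p = 0.0392) and when the 4 fat-body-rich libraries were left out (-0.34, adjusted p = 0.0457).

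The remaining nuclear subunits of cytochrome c oxidase fell by less than COX8. COX7C fell by 0.75 (adjusted p = 5.5e-05), COX7B by 0.69 (adjusted p = 3.3e-05) and COX6B, the most abundant of them per kilobase, by 0.67 (adjusted p = 1.8e-05). COX4, the least abundant per kilobase of exon, fell least, from a range of 2960 to 3466 in control to 2012 to 2660 in ecd RNAi, a change of -0.45 (adjusted p = 0.001). Its rise with Xrp1 RNAi was 0.27 (adjusted p = 0.0226). That call was lost when any 1 of ecd RNAi replicates 3 (0.20) and 4 (0.24) or ecd plus Xrp1 RNAi replicates 1 (0.24) and 2 (0.26) was left out, with quantile normalization (0.17, adjusted p = 0.0592) and without the 4 fat-body-rich libraries (0.12, adjusted p = 0.187).

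Complex V, the ATP synthase, fell in all 11 nuclear subunits (median -0.59), beside 25.4% of all genes, and without overlap, beside 23.3%. Complex V rose in all 11 with Xrp1 RNAi (median 0.49), beside 26.7%, again without overlap, beside 24.4%. Its changes spanned a narrow range in ecd RNAi, from -0.78 to -0.46. ATPsynC, which forms the rotating ring in the membrane and was the most abundant nuclear member per kilobase, was at 28751, 28684, 22050 and 26214 in control, at 18880, 20360, 16453 and 13913 in ecd RNAi and at 24234, 24488, 25842 and 23402 in ecd plus Xrp1 RNAi. It fell by 0.61 (adjusted p = 7.7e-04) and rose by 0.51 (adjusted p = 0.003). ATPsynbeta, the catalytic subunit, averaged 23683 ± 1680 in control, 16468 ± 1590 in ecd RNAi and 22724 ± 1454 in ecd plus Xrp1 RNAi (SD, n = 4). ATPsynF, a subunit of the membrane part, fell most, by 0.78 (adjusted p = 1.7e-05), and ATPsyndelta, of the central stalk, was the least abundant per kilobase and fell by 0.48 (adjusted p = 1.9e-04).

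Subunits of the same complexes whose symbols fall outside the rule showed the same direction. Of a list of 11 symbols, 7 matched and 6 could be tested, and nothing is read from the 4 without a match. All 6 fell in ecd RNAi, beside 25.4% of all genes, and rose with Xrp1 RNAi, beside 26.7%. The medians were -0.69 and 0.60. They were the Rieske protein RFeSP (-0.40), the complex III subunit ox (-0.81), the complex IV subunits levy (-0.71) and cype (-0.71), and the ATP synthase subunits blw (-0.59) and sun (-0.68).

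The length of a gene's annotated exons went with the size of the fall. Across the 63 nuclear subunits other than ND-B8, Spearman's rho between summed exon length and the change in ecd RNAi was 0.38, and Pearson's r with log2 length was 0.38, so that shorter genes had the more negative changes. The 41 subunits with under 1000 bases of exon had a median of -0.60, and the 22 longer ones had -0.42. Among all genes tested the corresponding medians were -0.17 for 1826 genes and -0.03 for 8315. There rho was 0.13 and Pearson's r with log2 length was 0.02. These values are descriptions across genes measured in the same libraries, and genes are not independent replicates.

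The mitochondrial genome is transcribed inside the organelle from both strands, and its 13 protein genes carry no introns. In ecd RNAi 7 of them fell, beside 25.4% of all genes, and 0 rose, beside 22.4%. With Xrp1 RNAi added 3 rose, beside 26.7% of all genes, so that this count was at the share over all genes. The 7 falls became 3 without control replicate 1, 4 without control replicate 3 and 3 without the 4 fat-body-rich libraries. The 3 rises became 1 when ecd plus Xrp1 RNAi replicate 1, 2 or 3 was left out, 7, 5 and 5 without ecd RNAi replicate 2, ecd RNAi replicate 4 and ecd plus Xrp1 RNAi replicate 4, and 2 without the fat-body-rich libraries. Their sum stood at 62.8, 76.2, 24.5 and 68.5% of the control mean in ecd RNAi replicates 1 to 4, at 90.3 to 109% in control, and at 96.8, 95.9, 112 and 74.5% in ecd plus Xrp1 RNAi. ecd RNAi replicate 3 stood apart from its group. Over the 10 genes with a mean of at least 100 normalized counts, its median was 16% of the control mean, whereas the other ecd RNAi libraries had medians of 60.6, 75.2 and 70.5%. The mitochondrial large ribosomal RNA, mt:lrRNA, was also low in that library, at 79157 beside 202954 to 228031 in its group. Ribosomal RNA as a whole took its highest share there, 30.2%, and 28.2% in ecd plus Xrp1 RNAi replicate 4, where the median over the 10 genes was 65.9%; the part of library composition in these values was not tested.

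**Figure D3:**
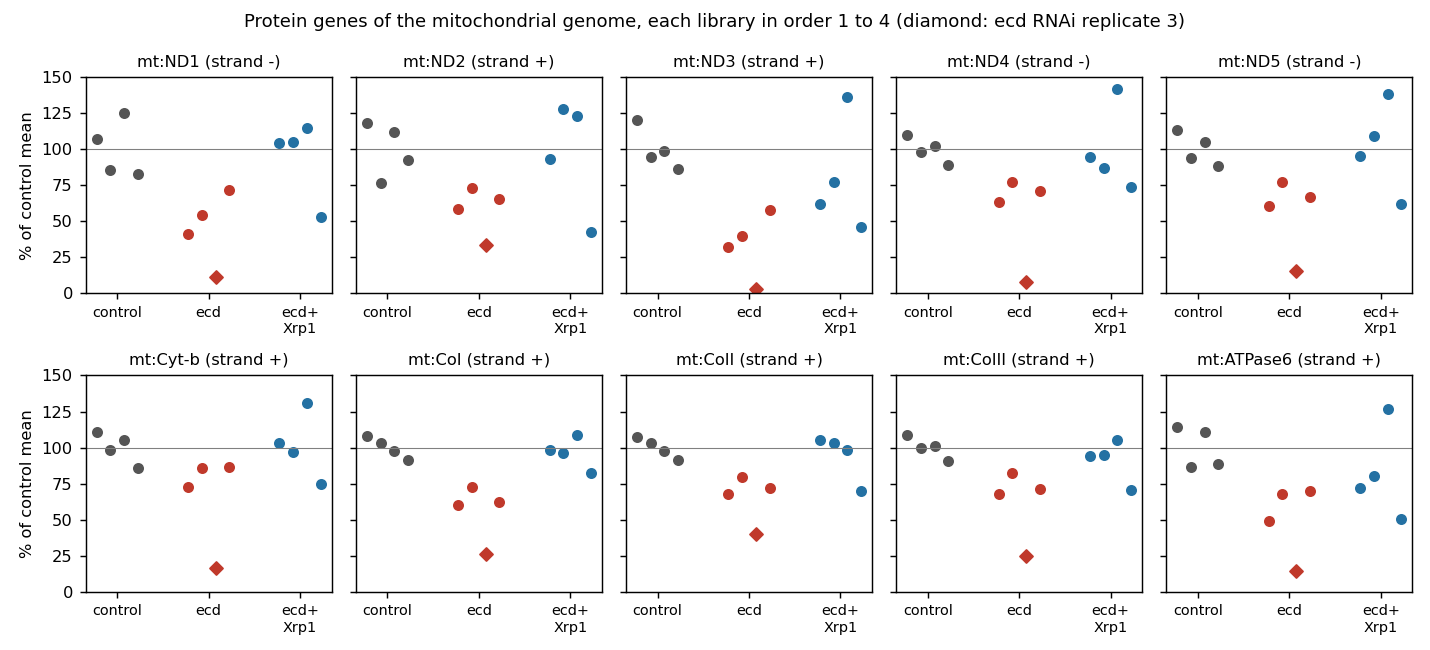
Normalized counts of the 10 protein genes of the mitochondrial genome with a mean of at least 100, as percent of the control mean of each gene, 4 libraries per group in the order of their numbers. The diamond is ecd RNAi replicate 3, which is the lowest library for all 10 genes, between 2.95 and 39.8%; the other ecd RNAi libraries lie below 100% throughout.

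The cytochrome oxidase genes come first among the protein genes. mt:CoI, the catalytic subunit, was at 112878, 107546, 101620 and 95624 in control, at 63017, 76164, 27463 and 64987 in ecd RNAi and at 102583, 100263, 114252 and 85859 in ecd plus Xrp1 RNAi. Every ecd RNAi library lay below every other library, and the other 2 groups overlapped. mt:CoI fell by 0.95 (SE 0.25, adjusted p = 0.0072) and rose by 0.89 (adjusted p = 0.0108). Without ecd RNAi replicate 3 its fall was 0.62 (-0.62, adjusted p = 0.00167) and its rise 0.56 (adjusted p = 0.00339).

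mt:CoII and mt:CoIII fell by 0.67 (adjusted p = 0.0106) and by 0.84 (adjusted p = 0.0339). Without ecd RNAi replicate 3 these changes were -0.45 (adjusted p = 0.0124) and -0.44 (adjusted p = 0.0156). mt:CoII rose with Xrp1 RNAi by 0.56 (adjusted p = 0.0267), or by 0.35 (adjusted p = 0.0459) without that library. The rise of mt:CoII was not called without ecd plus Xrp1 RNAi replicate 1 (adjusted p = 0.0725), 2 (adjusted p = 0.068) or 3 (adjusted p = 0.0629). The fall of mt:CoIII was not called without control replicate 1 (adjusted p = 0.0747), 2 (adjusted p = 0.063) or 3 (adjusted p = 0.0593). With the 4 fat-body-rich libraries left out, the fall of mt:CoIII was -0.48 (adjusted p = 0.0708) and that of mt:CoII -0.52 (adjusted p = 0.0559), and the rise of mt:CoII was 0.34 (adjusted p = 0.133), so that none of the 3 was called.

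Among the mitochondrial genes of complex I, mt:ND3 showed the largest change. It was at 1742, 1376, 1434 and 1256 in control, at 470, 573, 42.9 and 841 in ecd RNAi and at 897, 1119, 1979 and 663 in ecd plus Xrp1 RNAi. All ecd RNAi libraries were below control, and they overlapped with ecd plus Xrp1 RNAi. mt:ND3 fell by 2.19 (SE 0.71, adjusted p = 0.0218), and by -1.24 (SE 0.30, adjusted p = 0.00533) without ecd RNAi replicate 3, and the fall was not called without control replicate 1 (-2.10, adjusted p = 0.0513). Its difference between the RNAi groups was 1.76 (adjusted p = 0.058). That difference was called without ecd RNAi replicate 2 (2.05, adjusted p = 0.0455), 3 (0.81, adjusted p = 0.0484) or 4 (2.23, adjusted p = 0.0263).

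mt:ND1, read from the minus strand, was at 5438, 4351, 6399 and 4219 in control, at 2112, 2762, 599 and 3672 in ecd RNAi and at 5293, 5359, 5866 and 2710 in ecd plus Xrp1 RNAi. It fell by 1.41 (adjusted p = 0.0198) and rose by 1.28 (adjusted p = 0.0322). Without ecd RNAi replicate 3 the changes were -0.86 (adjusted p = 0.0185) and 0.73 (adjusted p = 0.0412). With the replicate block over control and ecd RNAi the fall of mt:ND1 was not called (adjusted p = 0.0521). The block over 3 groups kept the call of the fall but lost that of the rise (1.28, adjusted p = 0.0566). The rise was also not called when ecd plus Xrp1 RNAi replicate 1, 2 or 3 was left out (adjusted p = 0.073, 0.072 and 0.0808).

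Calls of other mitochondrial genes also depended on single libraries. mt:ND5 was at -1.08 (adjusted p = 0.0466), and at -0.55 (adjusted p = 0.0502) without ecd RNAi replicate 3. It was also uncalled with the replicate block over control and ecd RNAi (adjusted p = 0.0611) and in 12 further alternatives. mt:ATPase6, a subunit of the proton channel, was at -1.21 (adjusted p = 0.0326), and at -0.68 (adjusted p = 0.0395) without ecd RNAi replicate 3. It was uncalled with the block over control and ecd RNAi (adjusted p = 0.0542) or over 3 groups (adjusted p = 0.0615). Nor was it called without control replicate 1 (-1.15, adjusted p = 0.0732) or 3 (-1.16, adjusted p = 0.0659). With the 4 fat-body-rich libraries left out, mt:ND5 was at -0.59 (adjusted p = 0.179) and mt:ATPase6 at -0.78 (adjusted p = 0.129). mt:ND4 was at -1.28 (adjusted p = 0.0775) but was called without ecd RNAi replicate 3 (-0.50, adjusted p = 0.0325) or 2 (-1.58, adjusted p = 0.0432). mt:ND2 was at -0.82 (adjusted p = 0.0551). It was called with the block over control and ecd RNAi (adjusted p = 0.0382) but not with the block over 3 groups. It was also called without ecd RNAi replicate 2 (-0.95, adjusted p = 0.0449) or ecd plus Xrp1 RNAi replicate 4 (-0.82, adjusted p = 0.0107).

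The remaining mitochondrial genes were not called in ecd RNAi. mt:Cyt-b, the cytochrome of complex III, was at 18057 to 23250 in control and at 15161, 17939, 3490 and 18192 in ecd RNAi, with overlap between the groups. Its change was -0.87 (adjusted p = 0.111), or -0.29 (adjusted p = 0.153) without ecd RNAi replicate 3. mt:ND6, mt:ND4L and mt:ATPase8 were low, with control levels of 53.5, 143 and 71.1 normalized counts per kilobase beside 67980 for mt:CoI. mt:ATPase8 overlaps mt:ATPase6 by 7 bases on the same strand, and mt:ND4L overlaps mt:ND4 by 1, so reads there could be assigned to either. mt:CoIII and mt:ATPase6 also overlap by 1 base, with control levels of 66669 and 17043 per kilobase. mt:ATPase8 and mt:ND4L span only 162 and 291 bases. How reads were shared between such neighbours was not tested, so the low values of mt:ATPase8 and mt:ND4L may not be separate transcript levels.

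Of the 4 paralog members, COX7AL was the 1 that passed the test, and it was the 1 member called higher in ecd RNAi. It lies on chromosome 3R from 8343669 to 8344310, close to COX7A, the subunit it resembles, which runs from 8339944 to 8341043. COX7AL was at 2.03, 1.95, 7.10 and 0.861 normalized counts in control, at 54.2, 32.1, 23.0 and 41.5 in ecd RNAi and at 0.976, 1.61, 1.03 and 0 in ecd plus Xrp1 RNAi. The ecd RNAi libraries lay above all others. COX7AL rose by 3.44 (SE 0.68, adjusted p = 0.00105) and fell by 4.36 with Xrp1 RNAi (adjusted p = 1.9e-04). COX7A was at 3003, 2885, 2382 and 2711 in control and at 1928, 1942, 1743 and 1573 in ecd RNAi, and fell by 0.61 (adjusted p = 4.6e-05). COX7AL passed the limit on low values through the ecd RNAi group alone, so its call describes this gene and lends nothing to the set. With a limit of 50 it was not tested.

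The 3 other paralogs did not pass the test in any comparison. COX7CL ranged from 10.3 to 32.8 over all libraries and ATPsynepsilonL from 51.3 to 102. ATPsynbetaL was at 1.99, 4.90, 43.8 and 21.4 in control, at 3.34, 7.73, 32.0 and 6.91 in ecd RNAi and at 4.88, 3.25, 1.02 and 0 in ecd plus Xrp1 RNAi. ND-B8, the least abundant nuclear subunit of complex I, was at 9.16, 14.6, 71.1 and 36.2 in control, at 8.83, 2.57, 42.3 and 22.8 in ecd RNAi and at 11.7, 12, 1.03 and 3.58 in ecd plus Xrp1 RNAi. The highest libraries of both genes in control and ecd RNAi were replicates 3 and 4, apart from ecd RNAi replicate 4 for ATPsynbetaL.

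Those replicates were also high for the germline gene bam, which was at 1.99, 4.90, 208 and 116 in control, at 1.11, 5.15, 160 and 93.8 in ecd RNAi and at 1.95, 36.5, 1.02 and 3.60 in ecd plus Xrp1 RNAi. The 11 matched testis markers summed to 200 to 478 in control, 235 to 426 in ecd RNAi and 188 to 278 in ecd plus Xrp1 RNAi. Of them sa and fzo were at 0 in every library, and others did not all follow bam. The germline gene vas ranged from 10.3 to 16.7 in control, highest in replicate 2, and from 6.45 to 11.8 in ecd RNAi. It reached 40.9 in ecd plus Xrp1 RNAi replicate 1. bol differed less, at 160 to 196 in control and 180 to 271 in ecd RNAi. betaTub85D was higher in replicates 3 and 4, at 39.5 and 25.7 in control and 35.7 and 36.5 in ecd RNAi. The part of testis tissue in the values of ND-B8 and ATPsynbetaL was not tested.

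**Figure D4:**
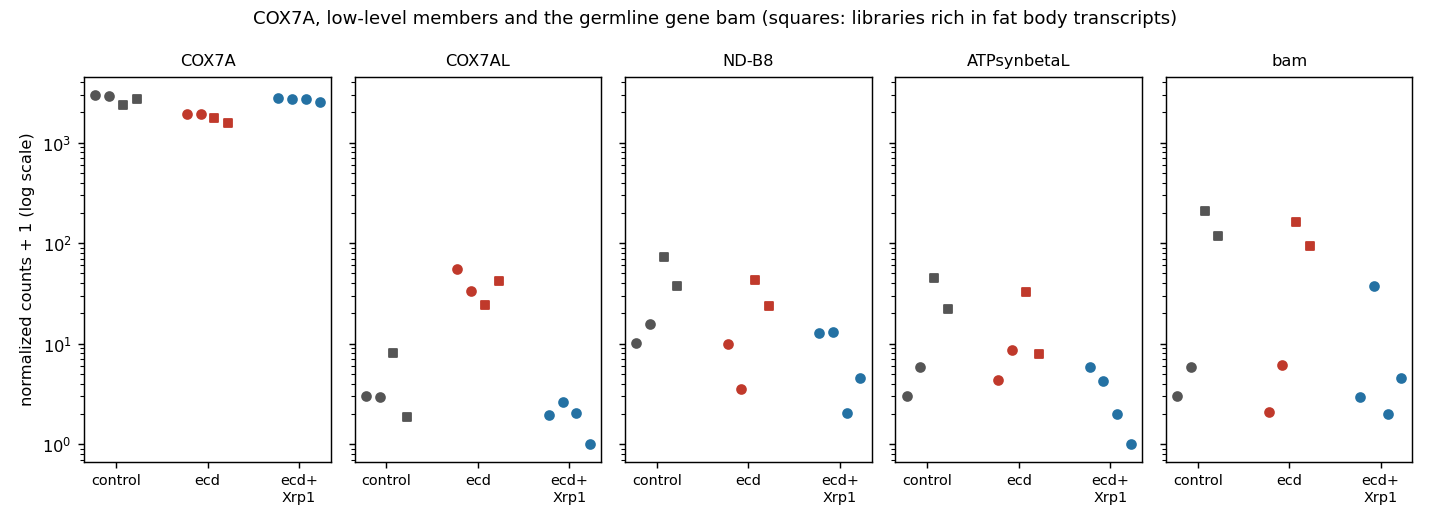
Normalized counts + 1, on a log axis, of COX7A, of the low members COX7AL, ND-B8 and ATPsynbetaL, and of the germline gene bam, 4 libraries per group in the order of their numbers. Squares mark the 4 libraries rich in fat body transcripts. COX7AL is high in the 4 ecd RNAi libraries (23.0 to 54.2), whereas the squares of ND-B8 and bam lie above the circles of the same group.

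Sums of markers of other cells also varied, but genes within a list did not all move alike. The 12 larval muscle markers summed to 4112 to 6691 in control, 8752 to 14494 in ecd RNAi and 5145 to 7637 in ecd plus Xrp1 RNAi. In ecd RNAi 2 of the 12 rose, sls and Mlc2, beside 22.4% of all genes, and 0 fell, beside 25.4%. The mean of sls alone was 3167 in control and 7144 in ecd RNAi. The 9 hemocyte markers summed to 4744 to 6009, 6052 to 6419 and 4413 to 4903, and the 5 tracheal markers to 10908 to 14538, 13162 to 16857 and 13208 to 14670. In ecd RNAi 2 hemocyte markers rose and 3 fell, and 2 tracheal markers rose and 2 fell, beside the same shares. The 6 wing pouch genes summed to 35993 to 39821, 28215 to 34496 and 36944 to 43811, and the 6 genes of the disc epithelium to 97675 to 99784, 78766 to 91565 and 97944 to 106123. Of the wing pouch genes 0 rose and 3 fell in ecd RNAi, and of those of the disc epithelium 1 rose and 3 fell. No marker of these 5 lists was at 0 in all libraries, nor was any of the 13 fat body markers. Their part in the changes of the respiratory chain was not tested. With the 4 fat-body-rich libraries left out, 54 members fell in ecd RNAi, beside 21.1% of all genes, and 43 rose with Xrp1 RNAi, beside 20.5%. Of these 54, 51 were nuclear and 3 mitochondrial.

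Introns of the nuclear members were looked up in the authors' deposited table of intron retention, where a ratio gives the share of transcripts that keep an intron. The table held 76 introns of 42 member genes. At an adjusted p under 0.05 in the authors' deposited table, 12 of them, in 9 genes, were retained more in ecd RNAi than in control, which is 15.8% of the 76, beside 2.18% of all 17817 introns. None (0) was retained less, beside 0.140% of all introns, and 6 were retained more at an adjusted p under 0.01, beside 1.13%. The group mean in ecd RNAi was above that in control for 70 of the 76, or 92.1%, beside 64.0% of all introns. The median retention of the 76 was 3.83% in control, 6.24% in ecd RNAi and 5.0% in ecd plus Xrp1 RNAi, again from the authors' deposited table. Member introns were better covered than most, with a median mean count of 107 beside 37.8, and 19 of the 76 overlapped a known exon.

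Few introns of any gene differed in retention between the RNAi groups, and nothing is read from the members' count there. Of the 76 introns, 0 differed between ecd plus Xrp1 RNAi and ecd RNAi in the authors' deposited table, beside 0.0786% retained more and 0.129% retained less of all introns. Against control, 3 were retained more in ecd plus Xrp1 RNAi, beside 1.19% of all introns, and 0 less, beside 0.0674%. These 3 lay in ND-30, ND-SGDH and ATPsynF, and each was also called in ecd RNAi. The group mean in ecd plus Xrp1 RNAi was below that in ecd RNAi for 58 of the 76, beside 9467 of all 17817 introns. It was above control for 57 of the 76, beside 10901 of all introns.

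The first intron of ND-30, on chromosome 3L from 3159349 to 3159408, was retained at 5.88% in control, 17.0% in ecd RNAi and 16.0% in ecd plus Xrp1 RNAi in the authors' deposited table (adjusted p = 2.3e-04 and 6.7e-04 against control). Its mean retention differed by little between the RNAi groups, while the ND-30 transcript rose between them. The first intron of ATPsynF, on chromosome 2R from 24599700 to 24599766, stood at 16.5, 42.8 and 38.9% in the same order (adjusted p = 4.4e-04 and 0.0048), but it overlaps a known exon, so an annotated transcript contributes to its reads. ND-SGDH, whose transcript level was not called, had a first intron at 1.35, 5.03 and 5.99% (adjusted p = 0.00334 and 9.0e-04) in the authors' deposited table.

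Other called introns are given by their group means in control, ecd RNAi and ecd plus Xrp1 RNAi, in that order; none of them passed the test between the RNAi groups. In the authors' deposited table an intron of ND-MLRQ that overlaps a known exon stood at 9.91, 32.1 and 19.8%, with the lowest adjusted p of the set in ecd RNAi (4.8e-06). The second intron of ND-B17.2 stood at 0.986, 4.98 and 2.78% (adjusted p = 2.4e-04 for ecd RNAi). The remaining calls were in ND-51, UQCR-11, a second one in ND-MLRQ, 2 in SdhD and 2 in COX5A that share their start. The table gives group means of 4 libraries, and no spread between libraries was used for it.

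**Figure D5:**
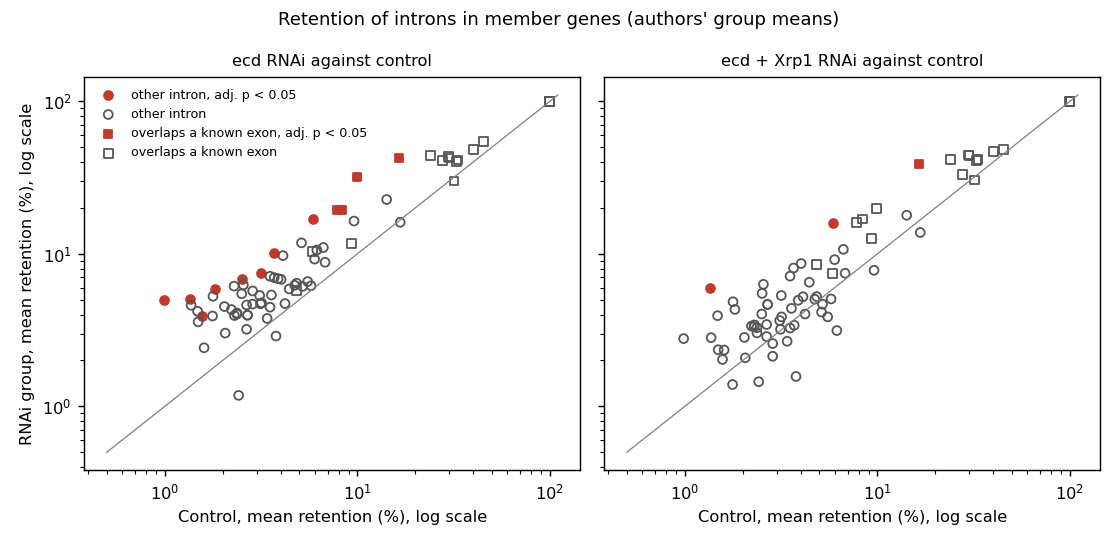
Mean retention of 76 introns in member genes, in percent on log axes, in control (horizontal) against each RNAi group (vertical), from the authors' deposited table. Filled symbols are introns with an adjusted p under 0.05 against control (12 in ecd RNAi, 3 in ecd plus Xrp1 RNAi), squares overlap a known exon, and the line marks equal retention. In ecd RNAi 70 of 76 introns lie above the line.

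Genes that serve the respiratory chain were also followed. Among electron carriers and feeders 7 of 9 tested genes fell in ecd RNAi, beside 25.4% of all genes, and 0 rose, beside 22.4%. They included porin, the outer-membrane channel (-0.71, adjusted p = 3.4e-05), the cytochrome c gene Cyt-c-p (-0.53, adjusted p = 2.8e-04), the ADP/ATP carrier sesB (-0.47, adjusted p = 0.00142) and its relative Ant2 (-0.95, adjusted p = 0.0115). porin rose by 0.56 with Xrp1 RNAi, whereas Ant2 was at -0.04 between the RNAi groups and was not called. The phosphate carrier Mpcp2 was at 0.09 in ecd RNAi (adjusted p = 0.459) and fell by 0.26 with Xrp1 RNAi (adjusted p = 0.0288). Dhod, the dihydroorotate dehydrogenase that passes electrons to ubiquinone, fell by 0.37 in ecd RNAi (adjusted p = 7.5e-04) and was still lower than control in ecd plus Xrp1 RNAi (-0.28, adjusted p = 0.0405).

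Of 13 tested assembly factors, 3 were higher in ecd RNAi, beside 22.4% of all genes and so near that share, and 7 were lower, beside 25.4%. Ttc19, a factor of complex III, was at 193, 190, 263 and 250 in control, at 926, 818, 813 and 841 in ecd RNAi and at 239, 234, 211 and 217 in ecd plus Xrp1 RNAi. It rose by 1.93 (adjusted p = 2.7e-08) with no overlap, while all nuclear subunits of complex III fell. The copper chaperone Cox17 rose by 0.56 (adjusted p = 0.00231). Cox11, which delivers copper to cytochrome c oxidase, fell from 151 to 185 in control to 70.7 to 84.3 in ecd RNAi, by 1.11 (adjusted p = 6.1e-05), and rose by 0.84 with Xrp1 RNAi.

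Of 15 genes that maintain and express mitochondrial DNA, 4 were higher in ecd RNAi, beside 22.4% of all genes, and 4 lower, beside 25.4%, which is near the shares over all genes. PolG1, the catalytic subunit of the mitochondrial DNA polymerase, was at 731, 728, 717 and 705 in control, at 1231, 1160, 1176 and 1011 in ecd RNAi and at 795, 770, 794 and 844 in ecd plus Xrp1 RNAi. It rose by 0.66 (adjusted p = 2.8e-06), and the methyltransferase mtTFB1 by 0.52 (adjusted p = 1.3e-04). TFAM, which packages mitochondrial DNA, fell by 0.36 (adjusted p = 8.8e-04), and SLIRP1, an RNA-binding protein of mitochondria, by 0.33 (adjusted p = 0.00529).

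Of 15 regulators and quality control genes, 6 were higher, beside 22.4% of all genes, and 4 lower, beside 25.4%. Lon, the protease of the mitochondrial matrix, was at 2131 to 2262 in control and 3263 to 3899 in ecd RNAi, and rose by 0.69 (adjusted p = 1.3e-06). The ubiquitin ligase park rose by 0.66 (adjusted p = 0.001). clu, an RNA-binding protein that acts on messages for mitochondrial proteins, was at 4408 to 5140 in control and 2548 to 3296 in ecd RNAi, and fell by 0.75 (adjusted p = 6.2e-06). The matrix chaperone Hsc70-5 fell by 0.48 (adjusted p = 6.9e-04). With Xrp1 RNAi Lon fell by 0.58, and clu rose by 0.57.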

How the data were processed

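Stranded total RNA libraries depleted of ribosomal RNA were sequenced, per the labels, from 4 biological replicates per group; the labels differ on whether reads were single or paired. Per the submitters' processing notes, the authors used the build BDGP6 and the tools DESeq2 1.34.0, kallisto 0.46.1, cutadapt 3.5 and FastQC. The main values are the normalized counts the authors deposited, a signal without a recorded depth. Values gave whole reads for only 48.8 to 76.1% of genes in a library (within 0.03 of a whole number), so reads were not recovered and no count test was run. The authors' deposited comparison tables hold log2 fold changes, a test statistic score and p-values, and the authors' intron table holds retention as a fraction from 0 to 1; 12 further columns of that table were not used. How strand entered the counting is not stated, and 31 of the 69 nuclear members share bases with a gene on the opposite strand.

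From these, log2(value + 1) of the 10179 genes with a mean of at least 10 was fitted with limma 3.58.1 (R 4.3.3, trended empirical Bayes) over all 12 libraries and tested two-sided, with Benjamini-Hochberg adjustment and a threshold of 0.05; the script was tested on simulated data. Symbols and positions came from the Ensembl annotation of BDGP6. Sums, percentages and flags used Python 3.11.15 and pandas 2.3.3. Fold changes on this scale understate those of low genes. Same-numbered control and ecd RNAi libraries deviated together (correlations of deviations 0.533, 0.412, 0.559 and 0.235, all above 0.1), so those numbers were read as pairs. Libraries of different number within replicates 1 and 2 (0.474 and 0.572) and within 3 and 4 (0.508 and 0.564) did so as much, the same split as the fat-body-rich libraries, so the block cannot be told apart from that split; the sample descriptions number the first pair differently. Those of ecd plus Xrp1 RNAi were not (negative for every pair).

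Members, lists and markers were chosen with earlier results of these data known. Named genes were the mitochondrial protein genes, the paralogs, up to 2 genes per complex and direction with the largest called changes, the most and least abundant per complex, calls against the rest of a complex, and up to 2 per direction of each longer list; 26 of 151 listed symbols over 13 lists had no match. Sequences and promoters were not used here. Alternatives were other pseudocounts, filters, scalings, weights, sample sets, a replicate block and each library left out.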

Additional observations from a re-analysis of the deposited data

Results flagged for a closer look

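In 16 of 246 sets of 4 libraries (82 genes in 3 groups), 1 library lay apart from the other 3 by a gap, relative to the range of the set, above Dixon's 95% critical value. Chance flags about 1 in 20 such sets. In all 16 the library apart was the lowest of its group. ecd RNAi replicate 3 was that library for mt:ND4 (587 normalized counts), mt:ND5 (920), mt:Cyt-b (3490), mt:CoIII (12901), ND-B15 (396), ND-MNLL (489) and UQCR-11 (1068). ecd plus Xrp1 RNAi replicate 4 was that library for mt:ND1 (2710), mt:CoII (15769), ND-13A (590), ND-13B (704), ND-49 (2613), ND-B15 (523) and ND-MNLL (498). The others were ecd plus Xrp1 RNAi replicate 3 for ND-75 (2640) and control replicate 4 for UQCR-11 (2088). The cause was not tested.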

How the results depend on the processing

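The number of members lower in ecd RNAi (63) was 61 to 71 over the other pseudocounts, filters, scalings, weights, the fit to 2 groups and the replicate block, 62 in the authors' deposited table, 52 to 68 when 1 library was left out, and 54 with the 4 fat-body-rich libraries left out (added after seeing the data). The number higher with Xrp1 RNAi (59) was 53 to 65, 59 in the authors' deposited table, 49 to 62 and 43 under the same alternatives. The share of all genes also moved. Lower in ecd RNAi were 16.2 to 31.7% over the settings, 22.7 to 26.1% with 1 library left out and 21.1% without the fat-body-rich libraries. Higher with Xrp1 RNAi were 16.5 to 32.7%, 23.7 to 27.7% and 20.5%. With the replicate block over 3 groups the counts of members were 65 and 60. With the block over control and ecd RNAi alone, added after seeing the data because these numbers were read as pairs, 66 were lower. The call of COX7AL was lost under a limit of 50, which leaves it untested (0 higher in ecd RNAi, 0 lower with Xrp1 RNAi), and quantile normalization gave 2 lower with Xrp1 RNAi. The number lower in ecd plus Xrp1 RNAi than in control (1) was 6 with quantile normalization, 4 with equal sums over nuclear genes, 9 with array weights, 2 in the fit to 2 groups, 2 with the replicate block, 2 in the authors' deposited table, 7 with the fat-body-rich libraries left out, and 1 to 2 with 1 library left out (2 without ecd RNAi replicate 3). Of all genes, 2.10% were lower there, 3.72% with quantile normalization, 3.77% with equal sums, 7.05% with array weights and 2.58% with the fat-body-rich libraries left out. The cause was not tested. Introns retained more in ecd RNAi numbered 6 at an adjusted p under 0.01. Of 2659 values for named genes, 2560 kept their side of the threshold, 53 lost the call, 46 gained it and 0 were called in the opposite direction. Uncalled changes could change sign. Without the fat-body-rich libraries, mt:ATPase8 went from 0.10 to -0.15 in ecd RNAi against control. ND-B8 went from -1.14 to 0.08 between the RNAi groups. The search of promoters for motifs was not run. Groups of 4, an unknown depth, and opposite-strand genes limit these values; low members rest on few reads.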
